A study of Homo sapiens with 3 samples.

Results

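Glutathione is built from cysteine, glutamate and glycine, and cells obtain much of their cysteine by importing cystine. The genes described here are the 10 that carry this supply and its use: the cystine importer SLC7A11, the synthesis enzymes GCLC, GCLM and GSS, the recycling enzyme GSR, the consuming enzymes GPX4, GPX2, GSTP1 and MGST1, and the transcription factor gene NFE2L2. They were chosen by name as genes of cystine import and glutathione synthesis and use, from 58735 genes in the deposited table, and each symbol matched 1 Ensembl identifier. Of the 10 genes, 9 reached a level of 1 CPM (counts scaled to library size, defined below) in at least 1 library, and MGST1 did not.

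The 3 RNA-seq libraries come from HaCaT, a human keratinocyte line that grows indefinitely in culture, with a wild-type genotype per the labels. One culture, the control, was given no particles. CB stands for carbon black, used at 25 µg/mL, and S1650b is a particulate sample used at 50 µg/mL. Particles were added in serum-free medium, and the labels give 24 h for every library. Each group is 1 library, so no difference given here has a replicate check and no p-value is given. Agent and dose differ together between the CB and S1650b libraries.

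The system runs in a chain. SLC7A11 pairs with SLC3A2 in the membrane and exchanges glutamate for cystine, which is reduced to cysteine inside the cell. The catalytic subunit GCLC and the modifier subunit GCLM join cysteine to glutamate in the rate-limiting step, and GSS adds glycine. Peroxidases and transferases use the product, and GSR restores its reduced form with NADPH. NFE2L2 encodes NRF2, a factor held low by KEAP1 under resting conditions, which activates many of these genes through antioxidant response elements in keratinocytes and other cells.

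Reference promoters were examined because several of the genes are known NRF2 targets. The search covered 7 of the 10 genes, with 12 starts among them from the RefSeq promoter table (GRCh38.p14). SLC7A11 and GSS had no entry there, and GSR was left out of the search, so its promoter was not tested. The 250 bases before each start were searched on both strands for the core TGACNNNGC of the antioxidant response element. GCLM, GSTP1 and GPX2 held 1 match each, and GCLC, GPX4, MGST1 and NFE2L2 held none in these windows. The 3 genes with a match have 1 start each of the 12. Over all 35116 promoters searched, counted by start and not by gene, 10.9% held a match. The windows are shown because these 3 genes carry the same core and differ in their values below. Each is written 5′ to 3′ on the strand of the gene, with the match in capitals and 10 bases on either side. The match in GSTP1 reads in the direction of the gene, and those in GCLM and GPX2 read on the other strand.
GCLM, chr1:93909446-93909474, minus strand: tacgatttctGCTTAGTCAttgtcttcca
GSTP1, chr11:67583736-67583764, plus strand: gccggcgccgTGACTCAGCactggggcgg
GPX2, chr14:64942849-64942877, minus strand: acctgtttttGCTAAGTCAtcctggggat

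The matches begin 34 bases before the RefSeq start of GCLM, 66 before that of GSTP1 and 122 before that of GPX2. The gene spans given below are from GENCODE 29 and reach further upstream than these starts. The GSTP1 and GPX2 windows lie inside those spans, and the GCLM window overlaps the end of its span. The GSTP1 match overlaps the AP-1 sequence TGANTCA, which 6.57% of all promoters searched held and no other window of the 7 genes did. The amino acid response core TGATGNAA, present in 3.14% of promoters searched, was not found in any window of the 7 genes. A match is a string of letters and does not show binding.

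The libraries hold 20658247 (control), 20946139 (CB) and 20417744 (S1650b) counts. All 10 keratinocyte markers examined, among them KRT5, KRT14 and TP63, were above 1 CPM in every library, but their summed level was 15354, 14079 and 7737 CPM, so it was lowest with S1650b. KRT5 and KRT14 make up most of that drop, with 137862 and 80055 counts in control cells and 49645 and 31282 in S1650b. KRT17, TP63, DSP, CDH1 and ITGA6, also among the 10, had more counts with S1650b than in control cells. Of 8 fibroblast markers 3 reached 1 CPM in each library, and the 8 summed to 93.1, 30.4 and 13.0 CPM. The 3 were DCN (1067, 153 and 41 counts in control, CB and S1650b), COL3A1 (638, 339 and 83) and COL1A1 (120, 106 and 156). Of the 8, 4, 0 and 1 were at 0, including COL1A2 in the control. Endothelial markers summed to 58.3, 32.1 and 48.1 CPM. Most of this was CDH5, with 1013, 503 and 920 counts, while KDR was at 0 in all libraries. Melanocyte markers summed to 8.35 to 10.1 CPM. Among them MITF had 90, 97 and 153 counts and PMEL 99, 65 and 42, with TYR and DCT at 0. Immune markers summed to 1.79 to 2.84 CPM, with CD14 at 37, 24 and 24 counts and CD68 at 0. Folds of S1650b over control also moved with exonic length and GC content. Their median on the log2 scale went from −0.31 for the shortest eighth of tested genes to 0.48 for the longest, and from 0.60 at the lowest GC eighth to −0.42 at the highest. For CB these values were −0.10 and 0.00 by length, and 0.05 and −0.08 by GC. The part of these shifts in the results below was not tested. For S1650b, the value with both trends removed is given beside a named fold where removal ends the call or turns the direction, and for several others.

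Levels are given as CPM scaled by TMM factors, which set the bulk of genes level between libraries. A fold is the ratio of these levels, with an exact 95% binomial (Clopper-Pearson) interval that covers counting error only, not variation between cultures. PCR copies are not independent molecules, so even counting error may be larger. The rule used below calls a gene higher or lower if it differs by 1.5-fold or more with the whole interval on one side of 1. In a bulk culture a change in the share of cells with a transcript and a change per cell cannot be told apart.

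SLC7A11 (ENSG00000151012, chromosome 4, 138164097 to 138242349, minus strand, GRCh38), the cystine-binding chain of the importer, had 413 counts in control cells, 887 in CB and 4708 in S1650b, or 21.0, 44.1 and 211 CPM. It was lowest in the control and highest in S1650b, and the counting intervals of the 3 libraries did not overlap. The CB level was 2.10-fold that of the control (1.87 to 2.37). The S1650b level was 10.1-fold that of the control (9.10 to 11.2), and 99.9% of all genes tested had a smaller log2 fold. The gene is long and poor in GC: its exons cover 9645 bases, longer than 88.2% of the genes tested, and only 2.09% of them have a lower GC content. With the length trend removed the S1650b fold was 7.69, and with length and GC trends removed it was 5.72. The CB fold with both removed was 2.02. Exons of SLC7A11-AS1, an antisense gene, overlap 8.97% of its exonic bases, and this gene had 7, 19 and 81 counts for control, CB and S1650b. The sources used here do not say whether counting used strand, so a part of either count may belong to the other.

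SLC3A2, the heavy chain that carries SLC7A11 to the membrane, did not follow it. Its counts were 22388 in control cells, 25463 in CB and 24735 in S1650b. The folds were 1.11 with CB (1.09 to 1.13) and 0.976 with S1650b (0.958 to 0.994). The S1650b value turned to 1.18 with both trends removed.

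GCLM (ENSG00000023909, chromosome 1, 93885205 to 93909456), the modifier subunit, was at 52.3 CPM in control cells, 88.1 in CB and 111 in S1650b. Control was the lowest of the 3 and S1650b the highest, with intervals apart. The fold was 1.68 with CB (1.56 to 1.82) and 2.12 with S1650b (1.97 to 2.29). Removing the length trend left the S1650b fold at 2.05, whereas removing length and GC trends brought it to 1.47, just short of the rule. GCLM is another gene of low GC content (37.3%).

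GCLC (ENSG00000001084, chromosome 6, 53497341 to 53616970), the catalytic subunit, was at 81.8 CPM in control cells, 112 in CB and 157 in S1650b. The order of the libraries was the same as for GCLM. With CB its fold of 1.37 (1.29 to 1.47) missed the rule. The S1650b fold of 1.92 (1.81 to 2.04) passed it, but was 1.54 with the length trend removed and 1.39 with both removed. The CB fold of GCLC with both removed was 1.35.

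Levels of different genes are compared as FPKM, the authors' fragments per kilobase of exon scaled to library size. Both subunits stood at almost the same FPKM in the control, with a ratio of GCLC to GCLM of 0.980 (0.906 to 1.06). That ratio was 0.800 in CB (0.751 to 0.851) and 0.888 in S1650b (0.843 to 0.935). The modifier subunit was thus the more abundant transcript per length in each particle library, beyond counting error.

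GSS (ENSG00000100983, chromosome 20, 34928433 to 34956027), the enzyme of the closing step, did not move with the subunits before it. Its level was 121 CPM in control cells, 137 in CB and 82.8 in S1650b. It was highest in CB and lowest in S1650b. The CB fold was 1.12 (1.06 to 1.19), and the S1650b level was 1.47-fold lower (1.38 to 1.56), which missed the rule. Removal of the length trend alone took it past the rule at 1.58-fold lower, and removal of both trends gave 1.31-fold lower.

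GSR (ENSG00000104687, chromosome 8, 30678061 to 30727999), which regenerates reduced glutathione, was at 119 CPM in control cells, 143 in CB and 109 in S1650b. The folds were 1.20 with CB (1.13 to 1.27) and 0.910 with S1650b (0.859 to 0.963), both short of the rule. Scaling by total counts turned the S1650b value above 1.

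GPX4 (ENSG00000167468, chromosome 19, 1103926 to 1106791), the selenium enzyme that reduces lipid peroxides in membranes, was at 519.7 CPM in control cells, 428 in CB and 441 in S1650b. It was highest in the control, and the intervals of the particle libraries overlapped. The level was 1.21-fold lower with CB (1.18 to 1.25) and 1.18-fold lower with S1650b (1.15 to 1.21). The S1650b direction turned to a fold of 1.02 without the length trend and 1.21 without both trends, since this short transcript is richer in GC than 91.9% of the genes tested.

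GPX2 (ENSG00000176153, chromosome 14, 64939152 to 64942905), an epithelial peroxidase that is also a selenium enzyme, was at 235 CPM in control cells, 160.3 in CB and 130.5 in S1650b. Its levels ran in the opposite order to those of SLC7A11, GCLM and GCLC, with intervals apart. The level was 1.47-fold lower with CB (1.40 to 1.54), just short of the rule, and upper-quartile scaling took it past the rule. With S1650b it was 1.80-fold lower (1.72 to 1.89), but 1.49-fold lower without the length trend and 1.37-fold lower without both trends. The ratio of GPX4 to GPX2 in FPKM went from 1.64 in the control (1.58 to 1.70) to 1.98 in CB (1.91 to 2.07) and 2.51 in S1650b (2.41 to 2.61).

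GSTP1 (ENSG00000084207, chromosome 11, 67583595 to 67586656), which joins glutathione to electrophiles, had the highest FPKM of the 10 genes in every library. It was at 1455 CPM in control cells, 1403 in CB and 1058 in S1650b. The fold with CB was 0.964 (0.948 to 0.980), and its direction turned with the FPKM values and with both trends removed. The S1650b level was 1.38-fold lower (1.35 to 1.40), short of the rule, and the fold with both trends removed was 1.04. Of the 3 genes with a matching promoter core shown above, GCLM was thus higher with both particles, GPX2 was lower with S1650b, and GSTP1 passed the rule with neither. With both trends removed, the S1650b values of GCLM (1.47) and GPX2 (1.37-fold lower) fell short of the rule.

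MGST1 (ENSG00000008394, chromosome 12, 16347142 to 16609259), a membrane-bound transferase, had 7 counts in control cells, 6 in CB and 4 in S1650b. The intervals of its folds were 0.233 to 2.91 with CB and 0.108 to 1.98 with S1650b. Both include 1, so these counts show no direction.

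NFE2L2 (ENSG00000116044, chromosome 2, 177227595 to 177392697) separated the particle libraries. It was at 50.5 CPM in control cells, 48.8 in CB and 92.7 in S1650b. The control and CB intervals overlapped, with a fold of 0.966 (0.883 to 1.06), while S1650b was 1.83-fold higher than the control (1.70 to 1.98). This fold stayed past the rule without the length trend (1.72) and without both trends (1.59). Exons of other genes overlap 20.9% of its exonic bases. The largest overlap is with ENSG00000213963, a gene of the same strand with 30, 10 and 70 counts for control, CB and S1650b, and AGPS, with 1287, 1659 and 2186 counts, shares a short stretch.

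**Figure D1:**
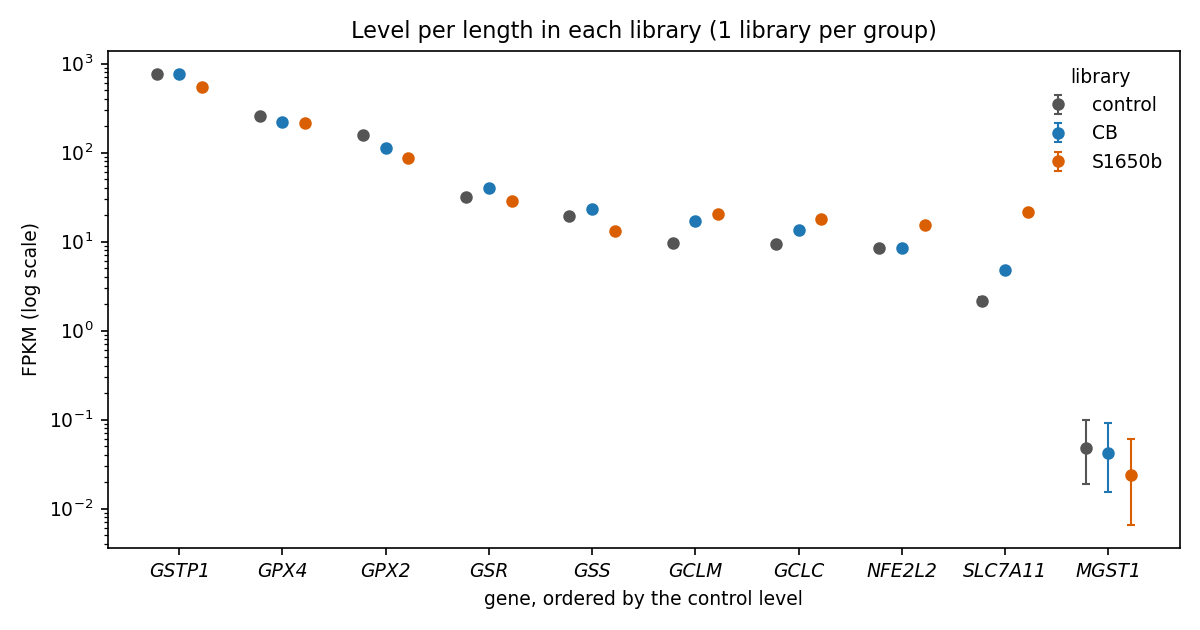
Level per exonic length (FPKM, log axis) of the 10 genes for control, CB and S1650b libraries, each point 1 library with its 95% counting interval, ordered by the control level. GSTP1 leads in every library at 548 to 767 FPKM, SLC7A11 climbs from 2.16 to 21.7 FPKM, and MGST1 lies under 0.1 FPKM.

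Order by level per length was the same in the control and CB. The control order was GSTP1 (757 FPKM), GPX4 (256), GPX2 (156), GSR (31.5), GSS (19.5), GCLM (9.59), GCLC (9.40), NFE2L2 (8.40), SLC7A11 (2.16) and MGST1 (0.0475). GCLM and GCLC, and GCLC and NFE2L2, were the neighbours whose counting intervals overlapped. In S1650b the importer moved from the ninth place to the fifth, at 21.7 FPKM, where its interval overlapped that of GCLM (20.3 FPKM), and GSS moved to the ninth at 13.3 FPKM. SLC7A11 thus went from 0.230 times the FPKM of GCLC in the control (0.206 to 0.256) to 0.352 in CB (0.325 to 0.380) and 1.20 in S1650b (1.15 to 1.26). Both genes are long, and SLC7A11 has the lower GC content.

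In CB against control, 2 of the 9 genes tested were higher (SLC7A11 and GCLM) and 0 lower. Over all 14619 genes tested, 4.71% were higher and 10.7% lower by the same rule. The median log2 fold of the 9 genes was 0.17, against 0.00 over all genes tested. With upper-quartile scaling the split was 2 higher and 1 lower.

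In S1650b against control, 4 of the 9 were higher (SLC7A11, GCLM, GCLC and NFE2L2) and 1 lower (GPX2), beside 22.0% higher and 19.4% lower over all genes tested. The median was −0.14, against −0.05 over all genes tested, and the range ran from −0.85 for GPX2 to 3.33 for SLC7A11. With length and GC trends removed the split was 2 higher (SLC7A11 and NFE2L2) and 0 lower, beside 15.0% and 17.0% over all genes. These 2 comparisons share the control library.

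**Figure D2:**
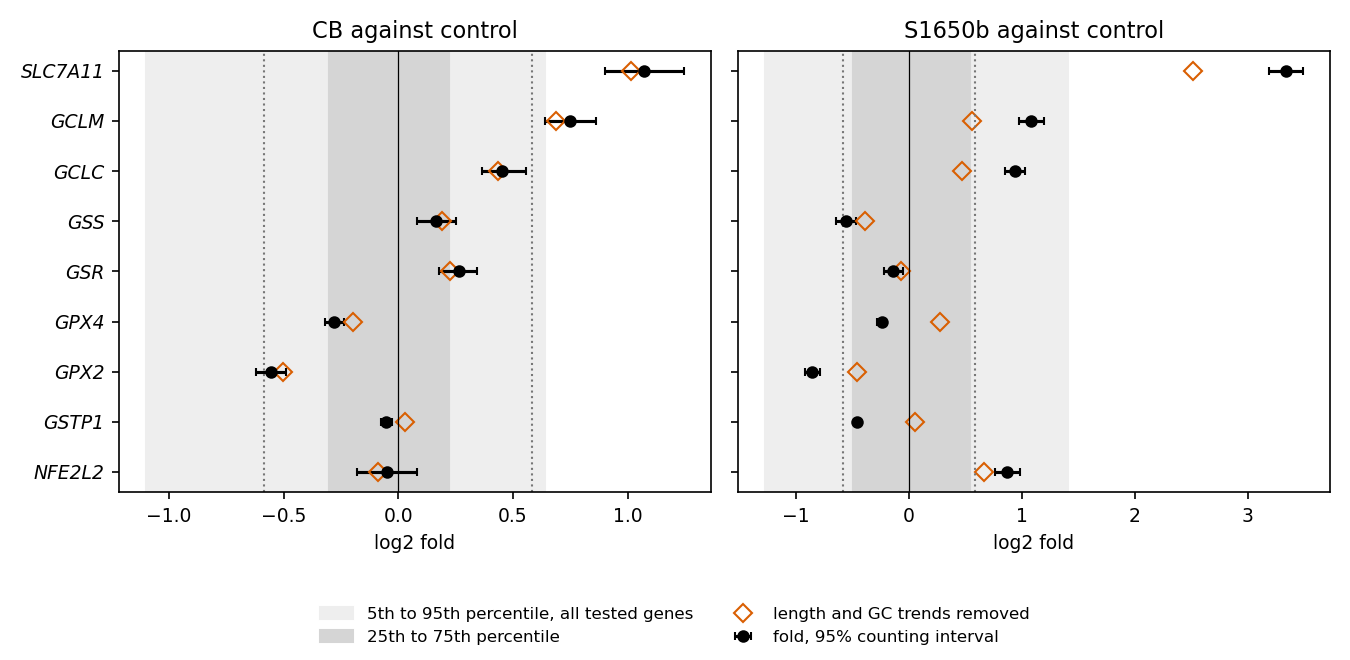
log2 fold of the 9 tested genes against the control for CB (left) and S1650b (right), with 95% counting intervals (black) and the value with length and GC trends removed (orange diamonds); grey bands span the 25th to 75th and 5th to 95th percentiles of all tested genes and dotted lines mark a fold of 1.5, and the panels differ in scale. SLC7A11 lies above the 95th percentile in both panels, GCLM in the CB panel only, and the trend removal moves S1650b values far more than CB values.

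Compared directly, S1650b exceeded CB by 4.79-fold for SLC7A11 (4.46 to 5.15) and 1.90-fold for NFE2L2 (1.76 to 2.05), and GSS was 1.65-fold lower (1.55 to 1.75). The other 6 tested genes passed the rule in neither direction, GCLM among them at 1.26 (1.19 to 1.34) and GCLC at 1.40 (1.33 to 1.48). Over all genes tested, 26.3% were higher and 20.5% lower in this comparison. With both trends removed the SLC7A11 fold was 2.86, that of NFE2L2 was 1.74, GSS was 1.45-fold lower, and GCLM turned to 0.932. Scaling by total counts gave 3 higher, GCLC being the added one, and 0 lower. The doses differ, so these values do not rank the particles at a matched dose.

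The genes with the pattern most like that of SLC7A11 were sought among 11325 genes with at least 5 CPM in some library, by the distance between pairs of log2 folds against the control over the 3 libraries. No gene lay close. The nearest was CALD1, an actin-binding protein, at a distance of 0.717 on the log2 scale (67, 120 and 484 counts in control, CB and S1650b). ITGB6, an integrin chain (1.05), ZDBF2 (1.06) and PMEPA1 (1.06) were also among the nearest 5. Each of these genes had smaller log2 folds than SLC7A11 in both comparisons. GCLM had close neighbours: TFPI (distance 0.0501), FAT1 (0.0519), DDX21 (0.0650), OSGIN1 (0.0679) and ABTB3 (0.0951). OSGIN1 is a known NRF2 target and had 260, 437 and 652 counts.

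Around these 10 genes, 139 other gene symbols were listed by role in 13 lists, with AIFM2 and FSP1 listed as separate symbols. Of these, 137 were found in the table and 116 were tested. With CB 12 of the 116 were higher (10.3%) and 8 lower (6.90%), beside 4.71% and 10.7% of all genes tested, and the median log2 fold was 0.17. With S1650b 28 were higher (24.1%) and 21 lower (18.1%), close to the 22.0% and 19.4% of all genes tested, and the median was −0.13. The CB split was 15 higher and 4 lower with the FPKM values (all genes 5.40% and 6.92%). The S1650b split was 35 higher and 15 lower with scaling by total counts (all genes 29.0% and 11.9%), which raised the median log2 fold of all genes tested by 0.20. S1650b against CB gave 22 higher (19.0%) and 34 lower (29.3%), beside 26.3% and 20.5% of all genes tested, or 30 and 23 with scaling by total counts (all genes 33.0% and 14.1%). The single lists described next are small, and their counts are to be read against the same all-gene shares.

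Of 7 tested transporters of cystine, glutamate and neutral amino acids, 2 were higher and 0 lower with CB, and 2 higher and 1 lower with S1650b. SLC1A4, a neutral amino acid carrier, was 1.86-fold higher with CB (1.70 to 2.03) and had a fold of 1.08 with S1650b, which turned to 0.914 with both trends removed. SLC38A1 and SLC38A2, which import glutamine and other small amino acids, were 1.77-fold and 1.75-fold higher with S1650b, but 1.08 and 1.17 with both trends removed. SLC1A3, a glutamate carrier, was 1.88-fold lower with S1650b (1.78 to 1.98).

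The 11 tested genes of cysteine and glycine supply gave 1 higher and 1 lower with CB, and 2 higher and 4 lower with S1650b. PSAT1, of serine synthesis, had 3282 counts in control cells, 10656 in CB and 3335 in S1650b. It was 3.18-fold higher with CB (3.05 to 3.30) and 1.11-fold lower with S1650b. PHGDH, which starts that pathway, was 2.84-fold lower with S1650b (2.69 to 3.01), and SHMT1 and SHMT2, which make glycine from serine, were 1.98-fold and 2.01-fold lower. For these 3 genes the S1650b values with both trends removed were 3.08, 1.94 and 1.66-fold lower.

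Glutathione breakdown had 2 higher and 2 lower of 9 tested with CB, and 1 higher and 4 lower with S1650b. CHAC1, which cleaves glutathione in the cytosol, had 28, 216 and 56 counts for control, CB and S1650b, a fold of 7.55 with CB (5.08 to 11.6) and of 1.77 with S1650b (1.10 to 2.89). CHAC1 was thus higher by more than SLC7A11 with CB and by less with S1650b. GGT1 and GGT6, of the family that cleaves glutathione outside the cell, were lower with both particles, by 2.44-fold and 5.36-fold with CB and by 2.66-fold and 6.37-fold with S1650b. GGT1 has near-identical relatives, so its count is uncertain, and GGT6 rests on 152, 29 and 27 counts. GGCT, which acts on the products of that cleavage, was 2.31-fold lower with S1650b, and other genes overlap 27.6% of its exonic bases.

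Export pumps (the ABCC family and ABCG2) and mitochondrial carriers together gave 1 higher and 0 lower of 10 tested with CB, and 4 higher and 2 lower with S1650b. ABCC3 and ABCC4, which export glutathione conjugates and other anions, were called higher with S1650b. ABCC3 had 2654, 2930 and 6007 counts, with a fold of 1.94 once both trends were removed. ABCC4 was 1.86-fold higher, but its fold with both trends removed was 1.29. ABCC2 and ABCG2 were the other 2 called higher, at 1.70 and 1.68, and fell short of the rule with both trends removed (1.30 and 1.27). SLC25A10 and SLC25A11, mitochondrial carriers, were 3.35-fold and 1.77-fold lower, and 2.38-fold and 1.25-fold lower with both trends removed, so that SLC25A11 no longer passed. Other genes overlap 46.6% of the exonic bases of SLC25A10.

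Further enzymes that use glutathione were in separate lists. Of 3 further peroxidases none passed the rule with CB and 1 was lower with S1650b, GPX1, the cytosolic selenium peroxidase, at 1.67-fold (1.59 to 1.76). Its value with both trends removed was 1.16-fold lower. Of 13 further transferases 0 were higher and 2 lower with CB, and 1 was higher and 4 lower with S1650b, among them MGST2, a membrane-bound relative of MGST1, at 2.12-fold lower (1.94 to 2.33). PTGES, the inducible prostaglandin E synthase of the same superfamily, was 2.38-fold lower with CB (2.31 to 2.46) and 1.54-fold lower with S1650b, or 1.12-fold with both trends removed, short of the rule. GSTM2 and GSTM3 rest on at most 55 counts and belong to a family of similar sequences. None of 7 glutaredoxins and glyoxalases passed the rule with CB, and 1 was lower with S1650b, GLRX5, of iron-sulfur cluster assembly, at 1.95-fold.

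GSR draws on NADPH made by several enzymes. ME1, malic enzyme, had 464 counts in control cells, 625 in CB and 1002 in S1650b. It was 1.91-fold higher with S1650b (1.71 to 2.13), or 1.53-fold with both trends removed, and IDH2, the mitochondrial isocitrate dehydrogenase, was 1.92-fold lower (1.47 to 2.51), or 1.42-fold with both trends removed, short of the rule. Of the 8 NADPH genes, none passed the rule with CB, and 2 were higher and 1 lower with S1650b.

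Among 16 genes that control NRF2, 1 was higher and 0 lower with CB, and 6 higher and 1 lower with S1650b. KEAP1, the repressor of NRF2, had folds of 0.947 with CB (0.897 to 0.999) and 0.786 with S1650b (0.744 to 0.830), which turned to 1.06 with both trends removed. BACH1, which competes with NRF2 at its binding sites, had 189, 165 and 605 counts and was 2.83-fold higher with S1650b (2.40 to 3.35), or 1.78-fold with both trends removed. BTRC and GSK3B, of a second route that degrades NRF2, were 2.27-fold and 1.95-fold higher with S1650b. With both trends removed BTRC was at 1.89 and GSK3B at 1.32, short of the rule. BACH2, a relative of BACH1, was 7.29-fold higher with S1650b on 4 counts in the control and 33 in S1650b (2.59 to 28.3).

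Among transcription factors known to act at SLC7A11, ATF4, the factor of the amino acid response, had 7895, 13213 and 6963 counts for control, CB and S1650b. It was 1.64-fold higher with CB (1.59 to 1.68) and had a fold of 0.779 with S1650b (0.754 to 0.804), which turned to 1.07 with both trends removed. ATF3, a stress-induced factor, was higher with both, by 1.57-fold with CB (1.40 to 1.77) and 3.62-fold with S1650b (3.27 to 4.01). Of the 5 factors, 2 were higher and 0 lower with CB, and 1 higher and 1 lower with S1650b.

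GPX4 and GPX2 need selenocysteine. Of 8 genes of selenium supply and selenoprotein synthesis, 1 was higher and 1 lower with CB, and 2 were higher and 1 lower with S1650b. LRP8, a receptor for the selenium carrier SELENOP, was 1.79-fold higher with CB (1.65 to 1.94). SELENOP itself had 114, 29 and 72 counts and was 4.02-fold lower with CB (2.65 to 6.27) and 1.79-fold lower with S1650b, but other genes overlap 36.1% of its exons. SEPSECS and SECISBP2, needed to make and insert selenocysteine, were 2.28-fold and 1.94-fold higher with S1650b, and 1.54 and 1.19 with both trends removed.

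Lipid peroxidation and iron genes, the setting in which GPX4 acts, gave 0 higher and 1 lower of 11 with CB, and 3 higher and 0 lower with S1650b. These were ACSL4, which loads polyunsaturated fatty acids into lipids, at 2.82-fold (2.60 to 3.06), TFRC, the transferrin receptor, at 2.64-fold (2.54 to 2.76), and FTL, a ferritin chain, at 1.64-fold (1.60 to 1.67). With both trends removed the values were 1.89, 1.78 and 2.25. ALOX12, a lipoxygenase, was 1.55-fold lower with CB, with 18.8% of its exons overlapped.

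Other known NRF2 targets had 2 higher and 1 lower of 8 with CB, and 4 higher and 0 lower with S1650b. TXNRD1, thioredoxin reductase, had 6359, 7843 and 24646 counts, with folds of 1.21 (1.17 to 1.25) and 3.42 (3.33 to 3.52), or 2.77 with S1650b once both trends were removed. OSGIN1 was 1.64-fold higher with CB and 2.21-fold higher with S1650b. AKR1C1, an aldo-keto reductase with near-identical relatives, was 1.81-fold higher with CB and had a fold of 1.40 with S1650b, which turned to 0.932 with both trends removed. SRXN1, sulfiredoxin, had folds of 1.44 and 1.61, but most of its exonic bases are shared with other genes.

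**Figure D3:**
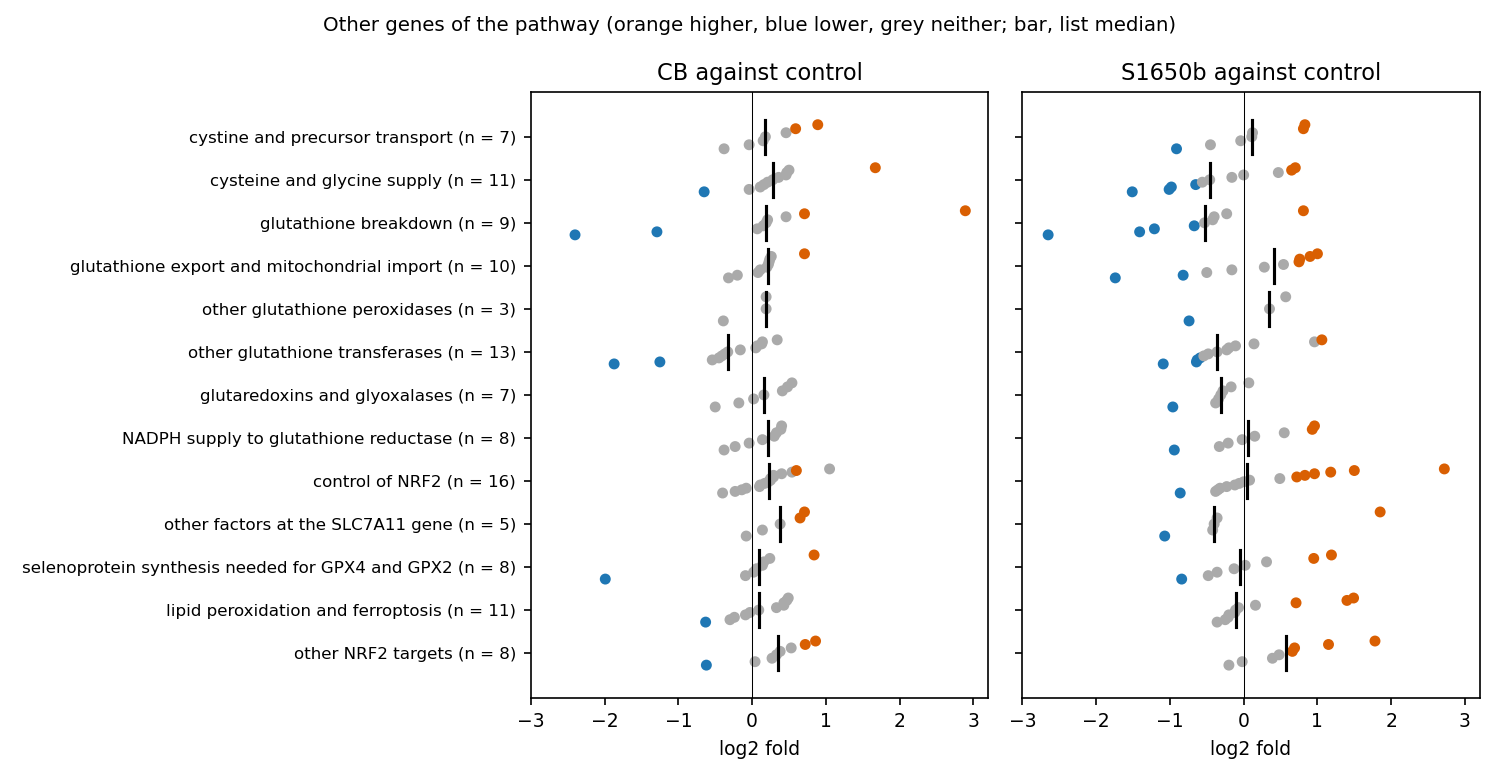
log2 fold of the 116 tested genes around the pathway, grouped by role, for CB (left) and S1650b (right) against the control, each dot a gene (orange higher, blue lower, grey neither by the 1.5-fold rule) and each bar the list median. With CB most dots are grey and 12 are orange, while with S1650b 28 are orange and 21 blue.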

How the data were processed

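The deposited count table holds whole-number counts per Ensembl gene from the authors, and a second deposited table gives the authors' FPKM for the same 3 libraries. Total RNA was taken with Trizol and made into NEBNext Ultra libraries, per the labels. The submitters' processing notes list CASAVA 1.7 beside mm8 and mm9. Those builds are of mouse, whereas the identifiers are human. Aligner, counting tool, strand setting and annotation: not given in the sources used here. GENCODE 29, which gave positions on GRCh38, holds all 58735 identifiers. For 100.0% of genes with at least 20 counts in every library, count divided by FPKM was proportional to the GENCODE 29 exonic length within 1%.

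Genes with at least 1 CPM, scaled by TMM, in at least 1 library were tested (14619). R 4.3.3 with edgeR 4.0.16 gave TMM factors of 0.953, 0.961 and 1.09 for control, CB and S1650b. Medians use log2 of counts plus 0.5, and a count of 0 took a floor of 3 counts. Trends of log2 fold with exonic length and GC content of the longest transcript were removed by lowess over all tested genes (span 30%), keeping the overall median. Scripts were tested on simulated data. Other steps ran in Python 3.11.15 (scipy 1.17.1 for intervals, statsmodels 0.14.6 for lowess, matplotlib 3.10.9 for plots).

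The 10 genes, the lists and the alternatives were chosen with earlier results of these data known. All 10 genes are reported. From each list the rule named up to 4 genes with the largest log2 fold among those past the 1.5-fold rule, plus SLC3A2, KEAP1, ATF4, BACH1 and CHAC1, and the text gives most of these. For SLC7A11 and GCLM it named the 5 nearest genes in pattern. A few of the picked genes are left out of the text.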

Additional observations from a re-analysis of the deposited data

How the results depend on the processing

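Alternatives were scaling by total counts, DESeq2 1.42.0 size factors or upper quartile, the deposited FPKM plus 0.1, 5 counts added, removal of the length trend or of length and GC trends, a fold of 2, and no filter or 5 CPM. SLC7A11 kept its direction and passed the rule under all of the scaling, value and trend alternatives, with folds of 2.02 to 2.18 for CB, 5.72 to 11.5 for S1650b and 2.86 to 5.45 between particles. NFE2L2 passed the rule in S1650b against control under the same alternatives (1.59 to 2.10). At a fold of 2, 1 of the 10 genes was higher with CB, 2 higher and 0 lower with S1650b, and 1 higher and 0 lower in S1650b against CB. All-gene shares at that fold were 1.67% higher and 5.60% lower, 12.0% and 7.91%, and 16.0% and 9.40%. The genes around the pathway then gave 2 higher and 5 lower, 10 and 8, and 11 and 13 in the same comparisons. Length and GC trends removed together left 2 higher and 0 lower in S1650b against control, and 0 lower in S1650b against CB, where scaling by total counts also gave 0 lower. Upper-quartile scaling made 1 gene lower with CB, and FPKM left 4 lower genes around the pathway with CB. No called fold of the 10 genes turned direction. With 1 library per group no library could be left out, and no paired analysis was possible because no group has a second library. Depth limits MGST1, whose fold interval with CB runs from 0.233 to 2.91.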
